A study of Mus musculus with 6 samples.

Results

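Matrix metalloproteinases (MMPs) and their tissue inhibitors (TIMPs) were described across RNA sequencing of O4-captured mouse brain cells. Of 55298 gene identifiers in the table, 10 were taken by symbol, namely the enzymes Mmp2, Mmp9, Mmp12, Mmp14, Mmp15 and Mmp19 and the inhibitors Timp1, Timp2, Timp3 and Timp4. Mice of the strain labelled c56Bl/6j had been immunised with MOG 35-55, a peptide of myelin oligodendrocyte glycoprotein, which brings about experimental autoimmune encephalomyelitis (EAE), or had been given ovalbumin (OVA) in its place. Cells were taken at the height of disease with magnetic beads carrying an antibody against O4, a surface antigen of the oligodendrocyte lineage, and were not cultured. The EAE group held 3 pools of RNA from 2 mice each, and the OVA group held 3 samples, of which OVA 2 pooled 2 mice while OVA 1 and OVA 3 were 1 mouse each. Samples are numbered here in the order of deposit, so that the numbers pair nothing. The sources used here do not give the age of the mice.

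MMPs are zinc-dependent proteases that are made as inactive proenzymes and cut collagens, laminins, proteoglycans and surface proteins. Some are secreted, while others such as MMP14 are anchored in the membrane. TIMPs block the active site, and TIMP3 also acts on ADAM and ADAMTS proteases. In mice with EAE, MMP2 and MMP9 are known to open the basement membrane around brain vessels to leukocytes by cutting the matrix receptor dystroglycan.

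Transcripts of oligodendrocytes were abundant in all 6 samples. The log2 of the summed level of 12 oligodendrocyte markers ran from 20.26 to 20.41 in EAE and from 19.89 to 20.33 in OVA, and 0 of the 12 were called. Each value is a regularised logarithm (rlog) on the log2 scale, in which a difference of 1 is a 2-fold change and low counts are drawn towards the gene's own mean. Markers of other brain and blood cells were present in every sample as well. In bulk RNA, fewer cells of a type cannot be told apart from less RNA per cell. OVA 3 stood apart from the other samples, since 9 of 11 neutrophil markers were highest there and the primary granule enzyme Mpo stood at 10.79, against 4.36 and 4.57 in the other OVA samples. The exceptions were the receptors Csf3r and Cxcr2, highest in EAE 2 at 11.97 and 9.04, against 11.54 and 8.93 in OVA 3. The log2 of the summed level of the 11 markers ran from 12.62 to 13.17 in EAE, and was 12.81, 13.09 and 15.90 in OVA 1 to OVA 3. The groups also differed in transcripts that depend on sex, which the labels do not give. Xist, which coats the inactive X chromosome in females, lay between 13.50 and 14.16 in EAE and between 7.39 and 7.63 in OVA, whereas the Y-linked Ddx3y averaged 9.93 in EAE and 11.38 in OVA. Immunisation and the sex makeup of the samples therefore cannot be told apart in any of the differences below.

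The comparison of EAE with OVA asks how the transcripts of this protease system stand in O4-captured cells at the height of disease. Mmp14, which makes a membrane-anchored collagenase, rose 1.62-fold, and was the only member past the threshold. Mmp12, the macrophage elastase, had the largest difference, at 4.38-fold higher in EAE, and missed the threshold narrowly (limma adjusted p = 0.0508). Timp3 and Timp4 lay 1.44-fold and 1.65-fold lower in EAE without passing. All 10 genes had a mean of at least 3 and were tested among 18161 genes with limma, a linear model that pools the spread across genes, at a Benjamini-Hochberg adjusted p of 0.05. Thus 1 of 10 was called higher and 0 were called lower, where 2.38% of all genes tested were called, 1.72% higher and 0.666% lower. At an unadjusted p under 0.05 there were 7 of 10, against 16.3% of all genes tested. In 4 genes every EAE pool lay above every OVA sample, and in 3 every EAE pool lay below, whereas 22.8% of all genes tested had no overlap, 12.1% above and 10.8% below. The median difference of the 10 was 0.18, beside -0.0024 for all genes. The 10 genes were chosen with earlier results of these data known, so these shares are no independent evidence about the gene family.

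**Figure D1:**
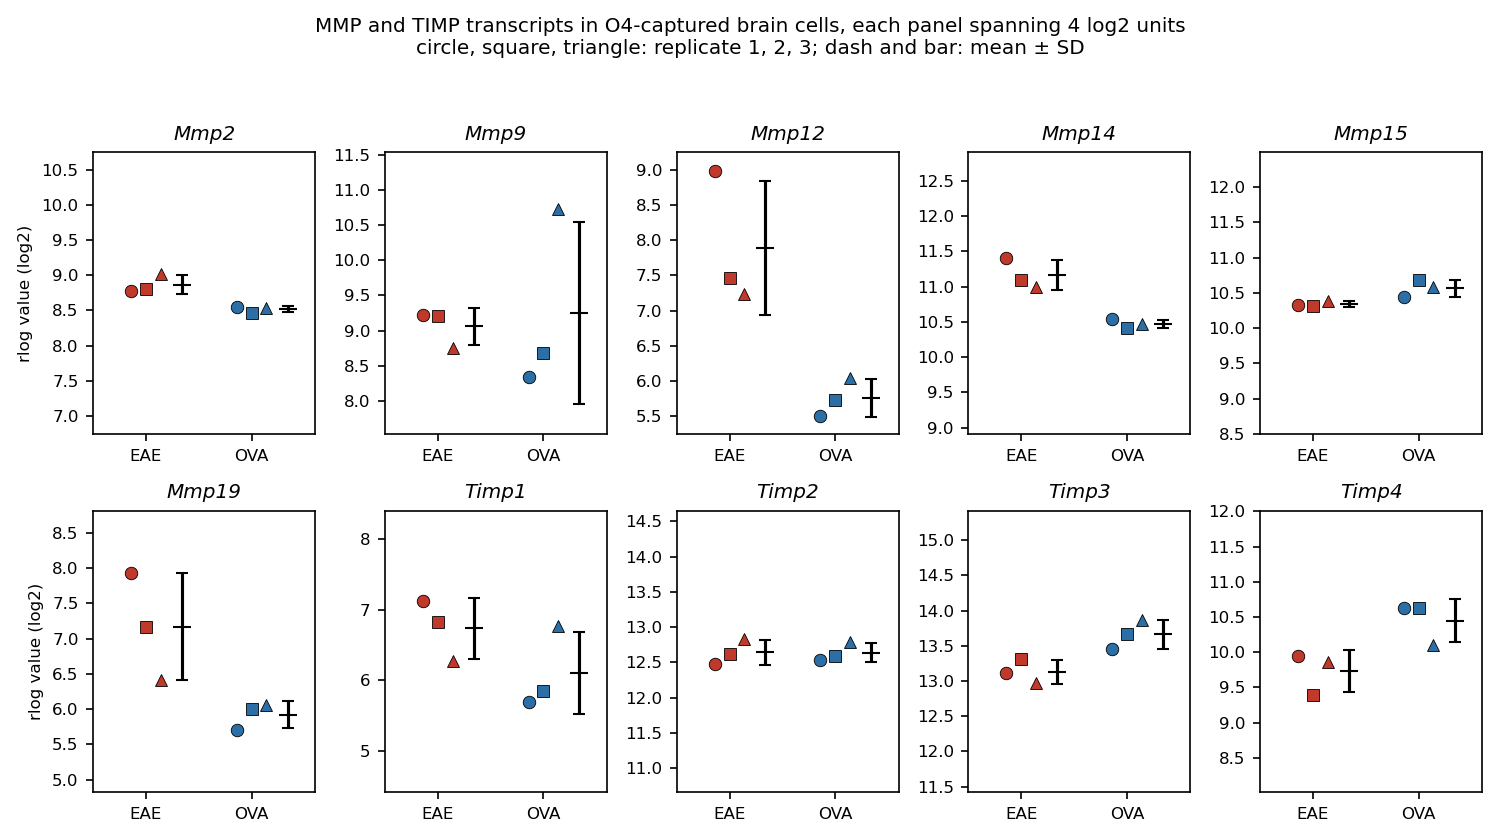
The rlog values (log2 scale) of the 10 genes are plotted by group, with EAE in red and OVA in blue. Circles, squares and triangles are replicates 1 to 3, and dashes with bars are means ± SD. Mmp12, Mmp14, Mmp19 and Mmp2 have every EAE point above every OVA point, and the OVA 3 triangle of Mmp9 stands at 10.73.

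**Figure D2:**
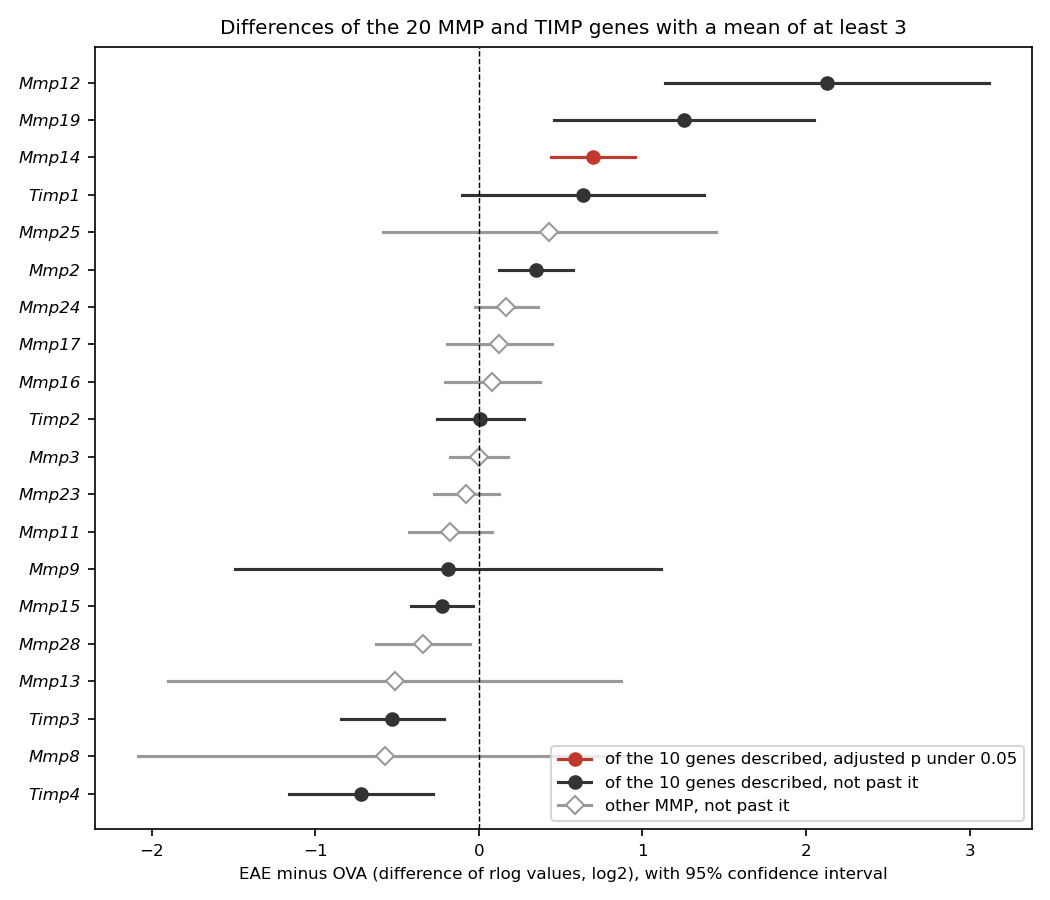
Differences of rlog values (EAE minus OVA, log2 scale) are shown with their 95% confidence intervals for the 20 MMP and TIMP genes with a mean of at least 3. Filled circles are the 10 genes described and open diamonds are other MMPs. The red point, Mmp14 at 0.70, is the one past the threshold.

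Mmp14 and Mmp15 encode membrane-type enzymes, and MMP14 activates the proenzyme of MMP2 with TIMP2 as an adaptor. Mmp14 (ENSMUSG00000000957.11, chromosome 14, 54431612 to 54445364, plus strand, GRCm38) had 11.41, 11.10 and 11.00 in the EAE pools, against 10.53, 10.41 and 10.47 in the OVA samples. The OVA samples lay within 0.13 of each other, and the lowest EAE pool stood above all of them. The rise was 0.70 ± 0.11 on the log2 scale (SE, n = 3 each; limma adjusted p = 0.0246). Without OVA 3 it was 0.70 ± 0.12 (limma adjusted p = 0.0188). It missed the threshold without EAE 1, EAE 2, OVA 1 or OVA 2, where it was 0.58, 0.73, 0.73 and 0.67 (limma adjusted p = 0.0612, 0.104, 0.0695 and 0.111). Mmp15 (ENSMUSG00000031790.8, chromosome 8, 95352268 to 95375080, plus strand) had 10.33, 10.31 and 10.38 in EAE, against 10.44, 10.68 and 10.58 in OVA. Its groups did not overlap either, but in the opposite direction and by a narrow margin. The difference was -0.23 ± 0.08 (SE; limma adjusted p = 0.23).

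Mmp12 and Mmp19 encode secreted enzymes. Macrophages are the known source of MMP12, which degrades elastin. Mmp12 (ENSMUSG00000049723.14, chromosome 9, 7344381 to 7369499, plus strand) had 8.98, 7.46 and 7.23 in the EAE pools, against 5.51, 5.73 and 6.05 in the OVA samples. EAE 1 stood well above the other pools, and the groups did not overlap. The difference was 2.13 ± 0.43 (SE, n = 3 each), with a 95% interval from 1.14 to 3.12. Mmp12 passed without EAE 1, EAE 3 or OVA 3, at 1.58, 2.46 and 2.27 (limma adjusted p = 0.0305, 0.0479 and 0.0293). It also passed under quantile normalization and median centring (limma adjusted p = 0.0484 and 0.0403). Without EAE 2, OVA 1 or OVA 2 it missed the threshold, at 2.34, 2.00 and 2.11 (limma adjusted p = 0.119, 0.132 and 0.170). Mmp19 (ENSMUSG00000025355.7, chromosome 10, 128790910 to 128800824, plus strand) had 7.94, 7.16 and 6.42 in EAE, against 5.70, 6.00 and 6.06 in OVA. Its pools spread over 1.52 in EAE, against 0.36 over the OVA samples, without overlap between the groups. Here the difference was 1.25 ± 0.34 (SE; limma adjusted p = 0.119), and it passed without EAE 3, at 1.63 (limma adjusted p = 0.0338). In the annotation 22.3% of the exon bases of Mmp19 are shared with Tmem198b on the other strand, which stood at 9.35 in EAE and 9.67 in OVA on average. The library kit keeps strand, but the sources used here do not say whether reads were counted by strand, so the level of Mmp19 is uncertain.

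Markers of monocytes and macrophages were also higher in EAE. All 13 of the list lay above 0 with a median difference of 1.32. Of these, 5 were called higher, Arg1, Gpnmb, Cd14, Cd68 and F10, and 8 were not. Ccr2 and Ly6c2 were among those not called and overlapped between the groups (limma adjusted p = 0.29 and 0.31). The log2 of the summed level of the 13 was 15.87, 15.59 and 15.23 in EAE 1 to EAE 3. It was 14.46, 14.66 and 15.22 in OVA 1 to OVA 3, and none of the list was at 0. EAE 1 was the highest and EAE 3 the lowest pool for this sum, as for Mmp12, Mmp14 and Mmp19. OVA 3 nearly equalled EAE 3 in this sum and lay above OVA 1 and OVA 2. Fn1, which is also among the matrix proteins below, is the highest marker of the list. The sum rests largely on Fn1, at 14.30 in EAE 3 and 14.62 in OVA 3. In contrast, the mean of the 13 markers was 10.97, 10.66 and 10.23 in EAE 1 to EAE 3. It was 8.44, 8.47 and 9.51 in OVA 1 to OVA 3. Mmp14 was 11.00 in EAE 3 and 10.47 in OVA 3, which lay between OVA 1 and OVA 2. Mmp12 was 7.23 in EAE 3 and 6.05 in OVA 3, and Mmp19 was 6.42 in EAE 3 and 6.06 in OVA 3, the highest OVA sample for both. Microglia markers lay below 0 in 8 of 8 cases, with a median of -0.58 and 2 called lower. The part of monocytes, macrophages and microglia in the 3 enzymes was not tested. Both lists were written with earlier results of these samples known, so their direction is no independent evidence.

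Upstream sequences are shown for 4 genes that have an entry among the RefSeq promoters of GRCm38.p6, namely Mmp12, Mmp14, Timp3 and Timp4, chosen by the size of the difference among the genes without overlap. Each stretch is the part of the 250 bases before a start site that no annotated exon covers, written 5′ to 3′ on the gene's strand, and capitals mark a motif match. Mmp12 has 2 RefSeq start sites.
Mmp12 start site 1, chr9:7344147-7344380, plus strand: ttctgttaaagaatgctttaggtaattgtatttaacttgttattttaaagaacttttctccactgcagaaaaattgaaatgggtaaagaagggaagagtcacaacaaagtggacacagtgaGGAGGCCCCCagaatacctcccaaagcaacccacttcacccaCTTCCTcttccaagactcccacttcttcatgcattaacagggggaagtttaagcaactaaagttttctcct
Mmp12 start site 2, chr9:7347124-7347373, plus strand: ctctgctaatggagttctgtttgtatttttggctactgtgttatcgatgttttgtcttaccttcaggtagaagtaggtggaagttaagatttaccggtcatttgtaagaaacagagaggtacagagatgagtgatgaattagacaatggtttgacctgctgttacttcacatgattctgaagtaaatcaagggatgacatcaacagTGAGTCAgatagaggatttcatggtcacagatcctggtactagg
Mmp14, chr14:54431348-54431597, plus strand: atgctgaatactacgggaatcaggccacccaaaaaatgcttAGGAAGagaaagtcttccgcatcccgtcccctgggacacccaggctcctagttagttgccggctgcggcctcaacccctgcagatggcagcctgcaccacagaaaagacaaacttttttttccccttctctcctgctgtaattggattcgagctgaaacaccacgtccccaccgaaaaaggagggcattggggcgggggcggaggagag
Timp3, chr10:86300162-86300371, plus strand: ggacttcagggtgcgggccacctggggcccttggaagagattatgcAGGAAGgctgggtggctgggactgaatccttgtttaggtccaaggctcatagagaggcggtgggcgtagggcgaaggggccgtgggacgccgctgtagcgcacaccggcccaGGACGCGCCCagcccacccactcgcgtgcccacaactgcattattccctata
Timp4, chr6:115252206-115252455, minus strand: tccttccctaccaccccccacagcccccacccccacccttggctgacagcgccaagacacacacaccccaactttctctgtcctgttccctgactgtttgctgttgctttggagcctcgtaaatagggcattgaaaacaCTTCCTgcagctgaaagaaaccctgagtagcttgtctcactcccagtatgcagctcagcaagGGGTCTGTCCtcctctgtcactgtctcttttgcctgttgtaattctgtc
The motifs searched on both strands were TGANTCA (AP-1), TGAGTAA (a variant AP-1 site known from Timp1), AGGAAG (the Ets site PEA3), TTCNNNGAA (STAT), the core promoter box TATAAA and, for NF-kappaB, GGG and CC with any 5 bases between. Among the member promoters, TGANTCA matched only before Mmp12 start site 2, as TGAGTCA, beginning 44 bases upstream, while 6.75% of 32851 promoters hold it. AGGAAG or its complement was found before 5 of the 8 promoters of these genes in the RefSeq table, against 29.5% of all promoters. The NF-kappaB motif was also found in 5 of 8, against 45.8%. TGAGTAA, TTCNNNGAA and TATAAA had no match in the 8 windows, and 2.25%, 7.02% and 12.4% of all promoters hold them. Of these 10 genes 7 had an entry, and Mmp2, Mmp9 and Mmp19 did not. A match is a stretch of letters and does not show that a factor binds there.

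Mmp2 and Mmp9 encode the gelatinases, which cut collagen IV of basement membranes. Mmp2 (ENSMUSG00000031740.8, chromosome 8, 92827291 to 92853420, plus strand) had 8.78, 8.80 and 9.02 in EAE, against 8.54, 8.47 and 8.54 in OVA. Every EAE pool was above every OVA sample, by a margin smaller than that of Mmp14. The difference was 0.35 ± 0.10 (SE; limma adjusted p = 0.126). Fibroblasts are a known source of MMP2, and the log2 of the summed level of 9 fibroblast markers ran from 12.27 to 12.45 in EAE and from 12.18 to 12.51 in OVA, with 3 of the 8 tested above 0 and 0 called. Among those above 0 was Pdgfra, which also marks oligodendrocyte precursors, at 10.72 in EAE and 10.34 in OVA on average, without overlap. The fibroblast values are therefore not of fibroblasts alone. The part of fibroblasts in Mmp2 was not tested.

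Mmp9 (ENSMUSG00000017737.2, chromosome 2, 164940780 to 164955850, plus strand) had 9.22, 9.21 and 8.75 in the EAE pools, against 8.34, 8.68 and 10.73 in the OVA samples. The highest value belonged to OVA 3, and the EAE pools lay above both other OVA samples. The difference was -0.19 ± 0.56 over all samples (SE; limma adjusted p = 0.91) and turned to 0.55 ± 0.17 without OVA 3 (limma adjusted p = 0.101). MMP9 is stored in granules of neutrophils, and 9 of 11 neutrophil markers, without Csf3r and Cxcr2, were highest in OVA 3 as given above. A pair of other MMPs of white blood cells had their highest value in the same sample, the neutrophil collagenase Mmp8 and the leukocyte membrane-type enzyme Mmp25. Mmp8 had 7.86, 7.30 and 7.28 in EAE, against 7.15, 7.23 and 9.78 in OVA. Mmp25 had 7.71, 7.86 and 7.52 in EAE, against 6.45, 6.96 and 8.38 in OVA. Mmp13 and Mmp28 were highest in OVA 3 as well. Mmp13 had 4.50, 4.54 and 4.64 in EAE, against 4.21, 4.32 and 6.69 in OVA. Mmp28 had 8.38, 8.57 and 8.60 in EAE, against 8.71, 8.79 and 9.08 in OVA. The part of neutrophils in the Mmp9 values was not tested.

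The inhibitors differed in direction, and with all samples 0 of the 4 passed the threshold. Timp1, an inhibitor known to be induced in astrocytes of mice with EAE, had 7.13, 6.82 and 6.27 in EAE, against 5.69, 5.85 and 6.77 in OVA (ENSMUSG00000001131.11, chromosome X, 20870166 to 20874735, plus strand). OVA 3 lay among the EAE pools, so the groups overlapped. The difference was 0.64 ± 0.32 (SE; limma adjusted p = 0.37), and without OVA 3 it was 0.97 ± 0.23 (limma adjusted p = 0.0477). Of 11 astrocyte markers 10 lay below 0 in EAE, with a median of -0.79 over the list and 5 called lower, and Gfap, the intermediate filament of reactive astrocytes, was called higher, at 1.35. Neutrophil and monocyte markers were higher in OVA 3 than in the other OVA samples by medians of 3.21 and 0.72. The part of these cells in Timp1 was not tested.

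Timp2, which inhibits MMP2 and helps MMP14 to activate it, had 12.48, 12.62 and 12.83 in EAE, against 12.53, 12.59 and 12.79 in OVA (ENSMUSG00000017466.9, chromosome 11, 118301069 to 118355740, minus strand). The groups covered nearly the same range. The difference was 0.0089 ± 0.11 (SE; limma adjusted p = 0.98), with a 95% interval from -0.26 to 0.28. Its sign turned under other scalings and with single samples left out, between -0.0837 and 0.0920.

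Timp3 binds to the extracellular matrix and is made by vascular cells among others. Timp3 (ENSMUSG00000020044.13, chromosome 10, 86300372 to 86349506, plus strand) had 13.11, 13.31 and 12.97 in EAE, against 13.45, 13.67 and 13.86 in OVA. All EAE pools lay below all OVA samples, and OVA 3 was the highest. The difference was -0.53 ± 0.13 (SE; limma adjusted p = 0.101), or -0.43 ± 0.12 without OVA 3 (limma adjusted p = 0.0741). Markers of vessels were likewise below 0, in 10 of 10 cases for endothelium and 9 of 9 for mural cells (pericytes and smooth muscle), with 0 called in either list and medians of -0.56 and -0.37, and each of these genes was highest in OVA 3. The log2 of the summed endothelial level ran from 15.54 to 16.10 in EAE and from 16.01 to 16.74 in OVA, and that of mural cells from 14.60 to 15.02 in EAE and from 14.75 to 15.61 in OVA. No marker of the lists was at 0, and the part of vascular cells in Timp3 was not tested. Timp3 lies within Syn3, a gene on the opposite strand at 6.20 in EAE and 6.03 in OVA on average, and 21.3% of the exon bases of Timp3 are shared with it.

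Timp4 is an inhibitor with high expression in brain and heart. Timp4 (ENSMUSG00000030317.8, chromosome 6, 115241892 to 115252205, minus strand) had 9.94, 9.39 and 9.86 in EAE, against 10.62, 10.63 and 10.10 in OVA. No EAE pool reached the lowest OVA sample, OVA 3. The difference was -0.72 ± 0.19 (SE; limma adjusted p = 0.11), and it passed without OVA 3, at -0.90 ± 0.15 (limma adjusted p = 0.018). The summed level of the 11 astrocyte markers, of which 5 were called lower and Gfap higher, ran from 16.08 to 16.42 in EAE and from 16.86 to 17.21 in OVA on the log2 scale. The part of astrocytes in Timp4 was not tested. Timp1 and Timp4 lie within Syn1 and Syn2 on the opposite strand, and share 0% and 1.53% of their exon bases with them. Without OVA 3 the calls over the 10 genes thus became 3 higher, Mmp12, Mmp14 and Timp1, and 1 lower, Timp4. Without EAE 3 they were 3 higher, Mmp12, Mmp14 and Mmp19, while 0 of 10 passed without EAE 2, OVA 1 or OVA 2. The calls over all 18161 genes tested moved as well, from 312 higher and 121 lower with all samples. They became 850 and 346 without OVA 3, and 286 and 45 without EAE 3. Without EAE 2 they fell to 24 and 1, without OVA 1 to 99 and 33, and without OVA 2 to 30 and 7.

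**Figure D3:**
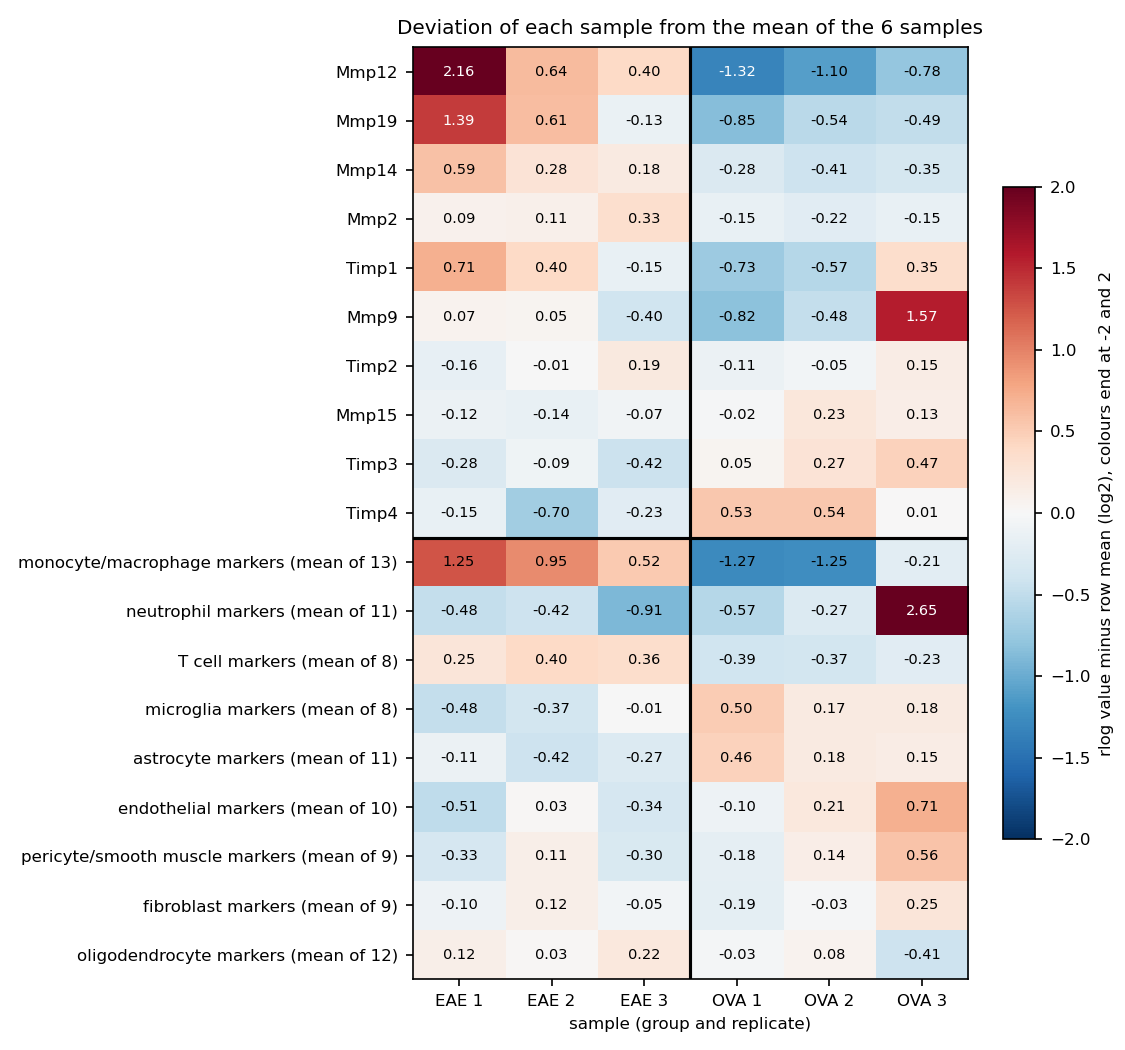
Each cell is the deviation of a sample from the mean of the 6 samples, in log2 units, for the 10 genes (above the line) and for the mean of each marker list (below it), with EAE samples left of OVA samples. OVA 3 stands out for neutrophil markers, at 2.65, and for Mmp9, at 1.57, and EAE 1 for Mmp12, at 2.16.

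Levels of different genes were compared after subtracting the log2 of exon length in kilobases from the rlog value. This length counts every annotated exon base of a gene, not the length of the transcripts present. On this scale Timp2 and Timp3 were the most abundant of the 10, at 10.68 ± 0.18 and 10.11 ± 0.17 in EAE and at 10.67 ± 0.14 and 10.63 ± 0.21 in OVA (SD, n = 3). In OVA these genes overlapped between samples, whereas in EAE Timp2 lay above Timp3 in every sample. Among the enzymes Mmp14 ranked highest in EAE at 8.59 ± 0.21, and Mmp15 in OVA at 8.13 ± 0.12. In EAE the order went on with Mmp15, Mmp9, Timp4, Mmp2 and Timp1, and of these Mmp9 to Timp1 overlapped with their neighbours. Mmp14, Timp4, Mmp9, Mmp2 and Timp1 followed Mmp15 in OVA, and each of these 5 overlapped with its neighbours among them. Mmp19 and Mmp12 were the least abundant in both groups, at 5.35 ± 0.76 and 5.04 ± 0.95 in EAE, where they overlapped, and at 4.10 ± 0.19 and 2.91 ± 0.27 in OVA, where they did not. This order depends on the length used. By the rlog value alone, Timp1 was the lowest in EAE at 6.74, below Mmp19 at 7.17 and Mmp12 at 7.89. In OVA, Mmp12 was the lowest at 5.76, followed by Mmp19 at 5.92 and Timp1 at 6.10. The order between genes was not tested.

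The balance of enzyme and inhibitor was compared within samples, as the difference between the rlog values of a pair of genes. These values are not corrected for exon length. The sign and size of a value therefore cannot be read, only its difference between the groups. For 6 pairs set out with the design an exact two-sided permutation test of 3 against 3 samples was used, which cannot give a p under 0.1. Mmp12 minus Timp1 was 1.15 ± 0.63 in EAE, against -0.34 ± 0.33 in OVA (SD, n = 3 each), and did not overlap (exact p = 0.1, adjusted p = 0.12). With exon length taken into account it was below 0 in both groups, at -1.87 in EAE and -3.37 in OVA on average. Mmp14 minus Timp2, the activating enzyme and its adaptor, was -1.48 ± 0.38 in EAE, against -2.16 ± 0.16 in OVA. Mmp2 minus Timp2 stood at -3.78 ± 0.07 in EAE, against -4.12 ± 0.13 in OVA. Neither of these pairs overlapped (exact p = 0.1 and adjusted p = 0.12 for each). Relative to their inhibitor these 3 enzymes were more abundant in every EAE pool than in any OVA sample. Timp2 itself differed by only 0.0089. The pairs with Timp2, at 0.69 and 0.34, thus nearly repeat the differences of Mmp14 and Mmp2 alone, 0.70 and 0.35. The pairs were chosen with earlier results of these data known, so the lack of overlap is no independent evidence. Mmp9 minus Timp1 went the other way, at 2.32 ± 0.20 in EAE, against 3.14 ± 0.71 in OVA, also without overlap (exact p = 0.1, adjusted p = 0.12). Its difference of -0.82 became -0.42 without OVA 3. Timp1 minus Timp3 was -6.39 ± 0.37 in EAE, against -7.56 ± 0.40 in OVA, without overlap (exact p = 0.1, adjusted p = 0.12), while Timp1 minus Timp4 overlapped (-2.99 ± 0.53 in EAE, against -4.35 ± 0.89 in OVA; exact p = 0.2, adjusted p = 0.2).

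**Figure D4:**
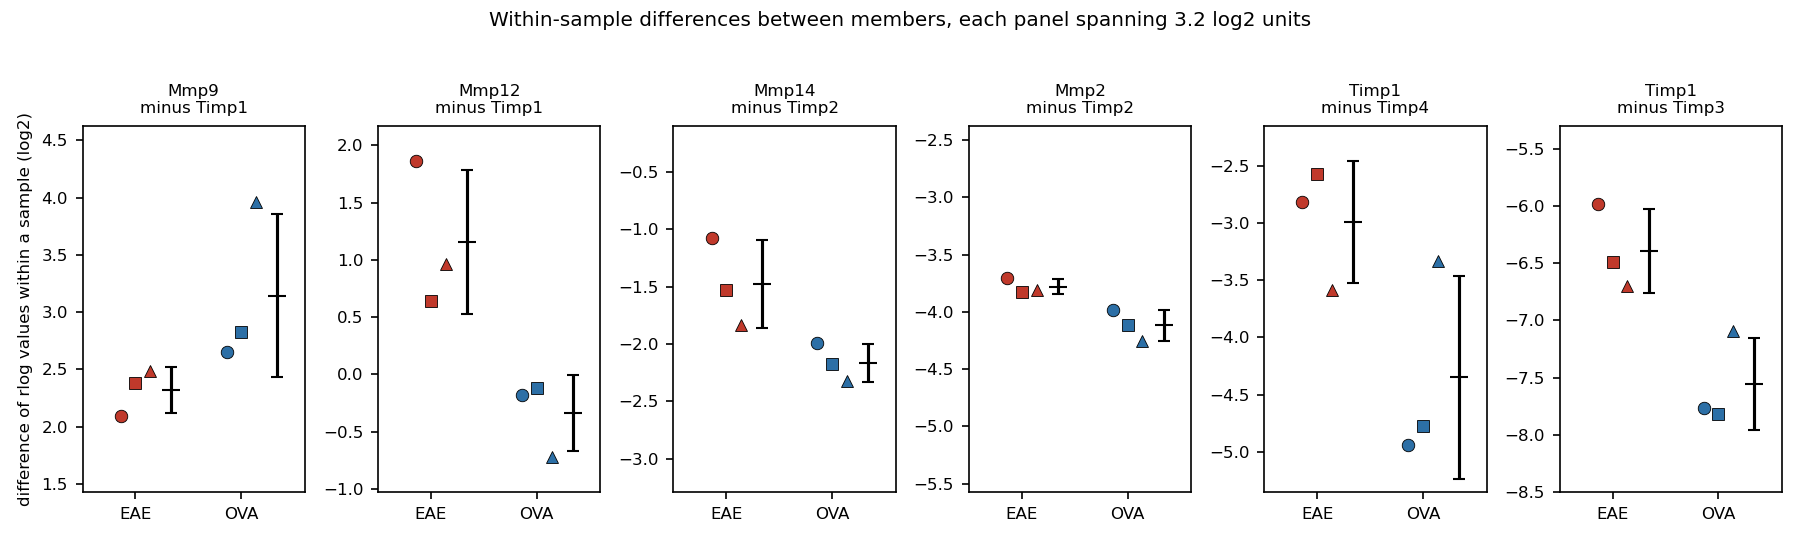
The difference between the rlog values of a pair of genes within a sample (log2 scale) is plotted for 6 pairs, with EAE in red and OVA in blue. Symbols are replicates 1 to 3 and dashes with bars are means ± SD. The groups overlap only for Timp1 minus Timp4.

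Of the 17 other mouse MMP genes looked up, 4 were listed at 0 in every sample, 3 more had a mean under 3, and 10 were tested. Of these 10, 5 lay above 0 and 5 below, with a median of -0.04, and limma called 0, with 1 at an unadjusted p under 0.05. That gene was Mmp28, the enzyme epilysin, at 8.52 ± 0.12 in EAE and 8.86 ± 0.20 in OVA (SD, n = 3; limma adjusted p = 0.23). Mmp24, a membrane-type enzyme of neurons, came next, at 5.51 ± 0.05 in EAE and 5.34 ± 0.09 in OVA (limma adjusted p = 0.37). Without OVA 3, 1 of the 10 was called higher.

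Among 23 tested ADAM and ADAMTS genes, families in which TIMP3 can inhibit some of the proteases, 1 was called higher and 0 lower, with a median of -0.02. Adam9, a sheddase of surface proteins, rose 1.40-fold, with 12.12 ± 0.03 in EAE and 11.63 ± 0.11 in OVA (SD, n = 3; limma adjusted p = 0.0263). The call was lost whichever sample other than OVA 3 was left out.

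Of 24 tested activators and regulators of MMPs 3 were called higher and 1 lower, with a median of -0.01. Plau, the protease urokinase that makes plasmin, rose 1.89-fold, with 9.31 ± 0.01 in EAE and 8.39 ± 0.28 in OVA (SD, n = 3; limma adjusted p = 0.0234). A2m, which traps many proteases, rose 1.70-fold, at 11.27 ± 0.07 in EAE and 10.50 ± 0.03 in OVA (SD, n = 3; limma adjusted p = 0.00531). Serpine2, an inhibitor of thrombin and urokinase, fell by 0.50 in log2 units (limma adjusted p = 0.0355). The higher calls numbered 0 without EAE 2, 1 without OVA 1, 1 without OVA 2 and 6 without OVA 3. The lower call was lost without EAE 1, EAE 2, OVA 1 or OVA 2, and also with no filter on low values (limma adjusted p = 0.0507).

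Matrix proteins that MMPs can cut were lower rather than higher in most cases, with 19 of 24 below 0 and a median of -0.27, but limma called 0 of them lower and 1 higher. The gene called was Spp1, the phagocyte product osteopontin, at 11.92 ± 0.68 in EAE and 9.45 ± 0.71 in OVA (SD, n = 3), so that it rose 5.51-fold (limma adjusted p = 0.0302). It missed the threshold whichever sample other than OVA 3 was left out, and without OVA 3 the list had 4 genes called lower. Endothelial markers were also below 0, with the values given beside Timp3. So were 10 of 11 astrocyte markers, with the values given beside Timp1 and Timp4. The part of these cells in this list was not tested.

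Among 22 tested genes that induce MMPs or TIMPs, 20 lay above 0, 7 were called higher and 0 lower, with a median of 0.34. Of all genes tested, 1.72% were called higher, 0.666% were called lower and 49.3% lay above 0. The same shares stand beside the counts of the other gene lists above. These lists were chosen with earlier results of these data known, so their counts are no independent evidence. The cytokine gene Il1a rose 3.21-fold (limma adjusted p = 0.0244), Il1b 2.77-fold (limma adjusted p = 0.0439) and Tnf 2.68-fold (limma adjusted p = 0.0115). Tnf had 9.50 ± 0.31 in EAE and 8.08 ± 0.18 in OVA (SD, n = 3). The others called were Lif, Stat3, Ifng and Il17a, and Ifng and Il17a had means of 4.37 and 3.69 in EAE and 3.93 and 3.35 in OVA, levels at which rlog shrinkage also narrows the spread between samples. The 7 calls became 1, 0, 2 and 0 without EAE 1, EAE 2, OVA 1 and OVA 2.

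Genes whose values over the 6 samples were most like those of 3 members were sought among 15215 other protein-coding genes, by the Euclidean distance of mean-centred rlog values. Nearest to Mmp14 were Fcgr3, Pkib, Pik3r5, Gla and Cmklr1, at distances of 0.15 to 0.18 in log2 units. Fcgr3, an Fc receptor of myeloid cells, had 11.69, 11.44 and 11.22 in EAE, against 10.69, 10.67 and 10.66 in OVA. Timp1 had Srgn, Treml2, Prdx5, Slpi and Samsn1 nearest to it, at 0.15 to 0.29. Srgn, the granule proteoglycan serglycin, had 11.84, 11.61 and 11.03 in EAE, against 10.59, 10.69 and 11.54 in OVA. Like Timp1, it was high in OVA 3. The genes nearest to Timp4 were Trim9, Cyp2j9, Cxcl14, Shisa9 and Disp3, at 0.26 to 0.34. With 6 samples and so many genes, close distances arise easily, and no test was made.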

How the data were processed

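RNA, pooled over mice for some samples, was turned into libraries by the TruSeq Stranded mRNA protocol, per the labels' protocols. Among tools, the submitters' processing notes list DESeq2 1.24.0, Subread 1.6.1, STAR 2.6.1c, cutadapt 1.18 and bcl2fastq 2.17, and as build GRCm38, with no role for each. The authors deposited rlog values, as the name of their table has it, on the log2 scale, from which read depth cannot be recovered, so no counting interval is given. This transformation understates differences of weakly expressed genes. The gene annotation used for counting is not stated in these sources.

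Symbols were found for 55117 of 55298 identifiers in GENCODE M21 (GRCm38), which also gave 1-based positions. Genes at 0 in every sample or with a mean under 3 were left out, which left 18161. EAE and OVA (3 samples each) were compared with limma 3.58.1 in R 4.3.3, with an intensity trend, two-sided, and Benjamini-Hochberg adjustment over all tested genes at 0.05. Within-sample differences were tested by exact permutation in scipy 1.17.1. Since most samples are pools, p-values measure the spread between these samples and not between animals. The members, gene lists and pairs were chosen with earlier results of these data known. Beyond the members, the text names per list up to 3 genes past the threshold in each direction with the largest difference (the 2 of smallest p if there were none), and the 5 genes nearest to Timp1, Mmp14 and Timp4. Markers and overlapping genes given beside a result, and Mmp8, Mmp13, Mmp25, Lif, Stat3, Ifng and Il17a, were named after their values were seen. A gene that the rule names among the regulators is not reported here. Alternatives were other filters, scalings, variance models and weights, protein-coding genes alone, and each sample left out.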

Additional observations from a re-analysis of the deposited data

How the results depend on the processing

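No paired analysis was possible because the labels give no replicate numbers that the groups share. Of 10 genes, the 1 called higher became 2 under quantile normalization, 2 under median centring, 5 with array quality weights and 3 with weights estimated gene by gene, which was added after seeing the data because the default estimation did not converge. The 0 called lower became 3 with either kind of weights. With each sample left out in turn they ranged from 0 to 3 higher and 0 to 1 lower. The cause was not tested. Mmp9 turned positive with array quality weights (0.37), with gene by gene weights (0.24) and without OVA replicate 3 (0.55), and ranged from -0.64 to 0.55 with a sample left out. Timp2 turned negative under quantile normalization (-0.00534) and median centring (-0.0142), and ranged from -0.0837 to 0.0920 with a sample left out. The other 8 of the 10 kept their direction under all 15 alternatives, as did the 11 other genes followed. The 6 pairs kept theirs under the 7 alternatives run for them, quantile normalization and each sample left out. Over all genes, 312 higher and 121 lower became 2858 and 2233 with array quality weights and 1035 and 433 gene by gene, and ranged from 24 to 850 and from 1 to 346 with a sample left out. With array quality weights the other MMPs had 2 higher and 1 lower, the ADAM list 3 and 4, the regulators 7 and 8, the inducers 16 higher and the substrates 9 lower. Gene by gene, the ADAM list had 1 lower, the regulators 7 higher and 2 lower and the substrates 4 lower. The regulators had 0 lower with no filter on low values, and the substrates 3 lower under median centring. Leaving out a sample gave 0 to 1 other MMPs higher, 0 to 1 ADAM genes higher and 0 to 1 lower, 0 to 6 regulators higher and 0 to 1 lower, 0 to 1 substrates higher and 0 to 4 lower, and 0 to 10 inducers higher.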
